A study of Mus musculus with 9 samples.

Results

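The mitochondrial ribosomal protein genes are the nuclear genes with symbols Mrpl or Mrps followed by a number, 78 in the gene table used here (49 Mrpl and 29 Mrps). The members described here are 63 of the 23623 regions in a table of ZEB1 binding counts. A region was a member when its centre lay within 50 kb of a protein-coding gene and the closest such gene boundary, at either end of the gene, was that of a mitochondrial ribosomal protein gene (assembly GRCm38). The rule used position only and no binding value. The members lay beside 40 of the 78 genes, 34 beside 25 Mrpl genes and 29 beside 15 Mrps genes. A neighbouring gene is not a shown target of ZEB1.

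ZEB1 binding was measured by CUT&RUN, in which an antibody directs a nuclease to cut DNA around the bound protein, in PB3 cells. PB3 is a mouse mammary tumour line that the labels describe as Er-/Pr-/Her2-, and every library came from this 1 line, with no other allele or transgene named. The treated libraries, labelled PB3_ERI, came from cells given 300 nM eribulin, a microtubule inhibitor whose name one label spells Erubilin, for 24, 48 or 72 h (2 libraries each), and the untreated controls, labelled PB3-Parental, were 2 libraries with no eribulin. A single library with IgG in place of the ZEB1 antibody served the authors' peak calling. The files hold no expression values, so the identity of the line could not be checked by marker genes, and whether a change in binding went with a change in transcript level is not known from them.

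Mitoribosomes translate the few proteins encoded by mitochondrial DNA, all of them subunits of the respiratory chain and ATP synthase. Their proteins are encoded in the nucleus, made in the cytosol and imported, and are assembled with mitochondrial rRNA into a large subunit, which forms peptide bonds, and a small subunit, which decodes mRNA. Many of their promoters are CpG-rich, broadly active and shared head to head with another gene, and factors of the NRF1, ETS and YY1 kinds are known for promoters of nuclear genes for mitochondrial proteins. ZEB1 is a zinc finger factor, best known as a repressor of epithelial genes, that binds the E-box word CACCTG. Symbols do not always name the subunit correctly: Mrps18a and Mrps30 encode proteins known to sit in the large subunit, and Mrps36 encodes a component of the oxoglutarate dehydrogenase complex. They are counted below by their symbols.

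The promoters of the genes whose start carried a peak that rose over the mean of the eribulin times are shown first, because the results turn on them. Each is the RefSeq GRCm38.p6 window from 250 bases before to 50 bases after the gene start, 5′ to 3′ on the gene's strand. Capitals mark the words searched on both strands: CACCTG (ZEB1 E-box), GCATGCGC (NRF1-type), CCGGAAG (ETS-type) and AAGATGGCG (YY1-type). The window of Mrps24 (chr11:5707652-5707951, minus strand) holds AAGATGGCG just after the start. That of Mrpl52 (chr14:54426659-54426958, plus strand) holds CCGGAAG in 2 places, written as its reverse complement CTTCCGG. That of Mrpl55 (chr11:59202236-59202535, plus strand) holds CACCTG. Those of Mrpl50 (chr4:49521034-49521333, minus strand) and Mrpl12 (chr11:120484387-120484686, plus strand) hold none of the words. Peaks over the promoters of Mrpl36, Mrpl37 and Mrps16 rose at 48 h alone, and their windows are not printed. Those of Mrpl36 and Mrpl37 hold AAGATGGCG, and that of Mrps16 holds none of the words.
Mrps24: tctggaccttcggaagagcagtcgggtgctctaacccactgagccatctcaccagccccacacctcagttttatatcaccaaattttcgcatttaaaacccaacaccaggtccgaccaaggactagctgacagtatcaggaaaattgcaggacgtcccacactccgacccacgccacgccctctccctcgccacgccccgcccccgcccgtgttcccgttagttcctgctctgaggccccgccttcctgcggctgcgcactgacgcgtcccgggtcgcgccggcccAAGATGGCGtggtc
Mrpl52: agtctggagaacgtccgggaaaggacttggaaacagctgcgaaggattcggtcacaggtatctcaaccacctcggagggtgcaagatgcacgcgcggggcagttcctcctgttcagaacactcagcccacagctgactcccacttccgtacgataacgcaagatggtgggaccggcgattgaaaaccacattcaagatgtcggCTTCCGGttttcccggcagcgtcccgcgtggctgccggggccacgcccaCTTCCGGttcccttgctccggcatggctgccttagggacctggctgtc
Mrpl55: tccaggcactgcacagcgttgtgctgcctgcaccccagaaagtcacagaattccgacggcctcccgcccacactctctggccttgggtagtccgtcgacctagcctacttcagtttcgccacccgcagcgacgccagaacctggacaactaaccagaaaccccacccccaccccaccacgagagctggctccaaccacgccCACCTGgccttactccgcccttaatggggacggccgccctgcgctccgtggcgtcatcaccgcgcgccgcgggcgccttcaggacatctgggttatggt
Mrpl50: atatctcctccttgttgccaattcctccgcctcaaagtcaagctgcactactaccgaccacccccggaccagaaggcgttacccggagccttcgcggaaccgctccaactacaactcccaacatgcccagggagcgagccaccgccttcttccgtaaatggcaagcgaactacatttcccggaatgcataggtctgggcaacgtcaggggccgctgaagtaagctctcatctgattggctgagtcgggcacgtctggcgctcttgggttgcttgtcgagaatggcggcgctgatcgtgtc
Mrpl12: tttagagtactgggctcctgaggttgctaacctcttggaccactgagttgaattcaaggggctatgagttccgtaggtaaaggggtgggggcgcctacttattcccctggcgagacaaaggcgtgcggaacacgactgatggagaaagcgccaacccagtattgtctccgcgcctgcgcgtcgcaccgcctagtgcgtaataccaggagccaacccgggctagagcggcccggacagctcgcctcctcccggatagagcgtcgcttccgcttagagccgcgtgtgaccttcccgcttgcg

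A promoter entry was found for 69 of the 78 genes, and 30 member peaks reached the promoter window of their own gene. CACCTG stood in 10 of the 69 windows (14.5%), against 20.2% of all 32817 promoter windows of the same length. Among the 21229 windows of protein-coding genes the share was 19.7%. Of the 30 windows under a peak, 4 held it (13.3%). These were Mrpl55, printed above, and Mrpl21 (chr19:3282792-3283091, plus strand), Mrpl46 (chr7:78783040-78783339, minus strand) and Mrpl58 (chr11:115403502-115403801, plus strand). The windows of Mrpl21, Mrpl46 and Mrpl58 are shown here because they hold the word and the peaks reaching them passed no test. The Mrpl58 peak reached only part of its window and did not cover the word.
Mrpl21: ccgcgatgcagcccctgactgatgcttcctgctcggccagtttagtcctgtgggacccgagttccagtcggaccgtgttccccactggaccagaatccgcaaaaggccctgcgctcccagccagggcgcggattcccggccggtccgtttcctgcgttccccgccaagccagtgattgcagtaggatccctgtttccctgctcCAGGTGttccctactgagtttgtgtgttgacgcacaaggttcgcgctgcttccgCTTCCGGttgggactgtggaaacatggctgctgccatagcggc
Mrpl46: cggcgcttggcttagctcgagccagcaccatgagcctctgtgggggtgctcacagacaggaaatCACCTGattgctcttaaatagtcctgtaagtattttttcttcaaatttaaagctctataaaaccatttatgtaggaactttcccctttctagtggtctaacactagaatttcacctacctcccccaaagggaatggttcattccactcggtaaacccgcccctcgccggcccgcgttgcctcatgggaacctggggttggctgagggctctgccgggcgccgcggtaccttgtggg
Mrpl58: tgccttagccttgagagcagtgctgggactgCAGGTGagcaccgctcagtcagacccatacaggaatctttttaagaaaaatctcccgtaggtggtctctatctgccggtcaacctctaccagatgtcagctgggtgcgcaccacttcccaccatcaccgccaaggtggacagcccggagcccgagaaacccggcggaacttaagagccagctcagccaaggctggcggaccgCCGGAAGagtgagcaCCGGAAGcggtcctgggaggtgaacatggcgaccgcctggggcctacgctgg

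The other words were each held by a larger share of these windows than of all windows, which were not matched for base composition. CCGGAAG stood in 24 of 69 (34.8%), against 8.86% of all windows and 11.6% of those of protein-coding genes. Of the 30 windows under a peak, 8 held it (26.7%). AAGATGGCG stood in 8 (11.6%), against 1.40% of all windows. GCATGCGC stood in 8 (11.6%), against 2.71% of all windows and 3.51% of protein-coding ones, and in 4 of the 30 under a peak (13.3%). Under a member peak it was held by the windows of Mrpl10, Mrpl17, Mrpl33 and Mrpl39. A match is a description of the letters in the window, and a window without a word says only that these letters are not in it.

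Peaks beside these genes lay at gene boundaries more often than peaks in general. Of the 63 members, 35 (55.6%) had their centre within 1 kb of the gene's start or end, against 28.3% of all 23623 peaks. Counted by gene, 47 of 78 mitochondrial ribosomal protein genes (60.3%) had some ZEB1 peak within 1 kb of a boundary, against 33.1% of 21627 protein-coding genes. The cytosolic ribosomal protein genes were close to them, with 62 of 101 (61.4%). The median distance of the 35 boundary members was 68 bp, against 122 bp for all boundary peaks. By subunit, 24 of the 34 Mrpl peaks but 11 of the 29 Mrps peaks were at a boundary, and 10 of those 29 were assigned to Mrps23. By gene the shares were closer, with some boundary peak at 31 of 49 Mrpl genes (63.3%) and 16 of 29 Mrps genes (55.2%). No test was made of these shares, since neighbouring peaks and shared promoters are not independent.

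Many of these boundaries were shared with another gene. Of the 35 boundary members, 15 (42.9%) had a second gene's boundary within 1 kb of the peak, against 19.2% of all boundary peaks. The pairs included Mrpl43 and Twnk (the mitochondrial DNA helicase), Mrpl47 and Ndufb5, and Mrpl36 and Ndufs6 (both partners are subunits of respiratory complex I), and Mrpl46 and Mrps11, in which both genes encode mitoribosomal proteins. A further 12 peaks at boundaries of mitochondrial ribosomal protein genes were assigned by the rule to the closer partner, so they are not members. Of these 12, 10 had a positive fitted change over the mean of the eribulin times, with a median log2 fold change of 0.43, while of all boundary peaks 67.1% were positive and the median was 0.20. In edgeR's quasi-likelihood test with Benjamini-Hochberg adjustment 3 rose, over a background of 12.8% of all boundary peaks called higher: the peaks between Mrpl2 and Cul7 (0.84 ± 0.25 SE, adjusted p = 0.0143), Mrpl32 and Psma2 (0.70 ± 0.24, adjusted p = 0.0336) and Mrpl51 and Ncapd2 (0.56 ± 0.18, adjusted p = 0.0202).

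Counts per library were low. Totals over all peaks ran from 326944 to 765015, and the median peak had 10 to 24 counts in a library. Replicate pairs of the untreated, 24 h and 72 h groups differed by less than sampling noise, with a chi-square per degree of freedom of 0.931, 0.953 and 0.965, and the 48 h pair by slightly more (1.06), while libraries of different groups gave 1.12 to 2.28. The labels do not say that replicates are separate cultures, so a p-value here reflects the spread among these libraries alone, which may be technical. The libraries are given separately. In an alternative fit the untreated, 24 h and 72 h pairs were each summed to 1 library. That fit took its spread from the 48 h pair alone, which may be technical too. It therefore cannot show the spread between cultures. Levels below are CPM, the counts scaled to a common library total in tested peaks, and fold changes are relative to the other peaks, since nothing was added to the libraries to set an absolute scale. Of the 63 members 59 had enough counts to be tested. The other 4, beside Mrpl33, Mrpl39, Mrps35 and Mrps6, were not tested, so counts over the 59 are not counts over all members.

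ZEB1 binding rose at few of these peaks. At 24 h 6 of the 59 tested members rose and 2 fell in edgeR's quasi-likelihood test (Benjamini-Hochberg, adjusted p below 0.05), over a background of 11.0% of all tested peaks called in either direction (6.44% higher, 4.61% lower). At 48 h 7 rose and 2 fell (background 11.5%, with 6.09% higher and 5.41% lower). At 72 h 4 rose and 1 fell (background 12.6%, with 6.84% higher and 5.74% lower). Over the mean of the 3 times 8 rose and 1 fell (background 16.8%, with 8.27% higher and 8.53% lower). The 3 comparisons share the untreated libraries. All eribulin libraries were above both untreated ones at 11 of the 59 peaks (18.6%), against 12.7% of all tested peaks, and below both at 2 (3.39%), against 12.5% of all tested peaks. DESeq2 called fewer: 1 member at 24 h, 0 at 48 h, 1 at 72 h and 1 over the mean, each time Mrps24. It gave no adjusted p at some members, such as Mrpl20 over the mean. At an unadjusted p below 0.05 it had 6 higher and 2 lower members at 24 h, 5 higher with 2 lower at 48 h, 5 higher with 1 lower at 72 h, and over the mean 8 higher with 1 lower. In edgeR these were 12 with 5 at 24 h, 16 with 2 at 48 h, 11 with 1 at 72 h, and over the mean 14 with 5.

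Fitted changes were higher at gene boundaries than away from them. The 33 tested boundary members had a median log2 fold change of 0.20 at 24 h, 0.36 at 48 h and 0.50 at 72 h, against 0.06, 0.20 and 0.37 for all 6024 tested boundary peaks. Those of cytosolic ribosomal protein genes had medians of -0.11, 0.11 and 0.36. Over the mean of the 3 times the boundary members had a median of 0.30 and 27 of 33 were positive, while the 26 members away from a boundary had a median of -0.01 and 12 were positive. The 26 include an Mrpl36 peak over its RefSeq promoter, 1059.5 bp from the nearest boundary, and many peaks assigned to Mrps23. The split is thus not one of promoter against distant peaks. All boundary peaks had a median of 0.20, all peaks away from one -0.10 and all tested peaks -0.01. Of the 33, edgeR called 5 higher and 1 lower at 24 h (6.26% and 3.32% of all boundary peaks), 6 and 0 at 48 h (8.38% and 1.71%), 3 and 0 at 72 h (14.2% and 0.93%), and 6 and 0 over the mean (12.8% and 2.41%). At an unadjusted p below 0.05, 0 were lower at 48 h and 72 h and 2 over the mean, and DESeq2 called 0 lower among all members in each of these comparisons. At boundaries all eribulin libraries were above both untreated ones at 8 of 33 peaks (24.2%), against 19.7% of all boundary peaks, and below both at 0 (4.3% of all boundary peaks). No test was made of members against other boundary peaks, and boundary peaks in general moved the same way. Over the mean the 23 Mrpl peaks at boundaries had a median of 0.29 and the 10 Mrps peaks there 0.55, with 5 and 1 called higher. Among all tested members the order was the other way, 0.29 for 32 Mrpl peaks and 0.08 for 27 Mrps peaks, which include those assigned to Mrps23.

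**Figure D1:**
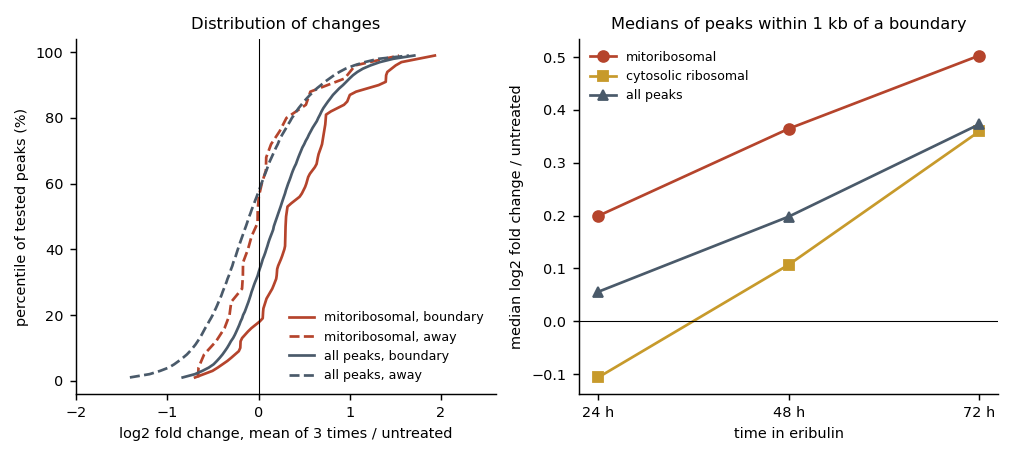
Left, share of tested peaks (percentile, y axis) at or below each log2 fold change over the mean of 3 eribulin times (x axis), for mitochondrial ribosomal protein gene peaks (red) and all peaks (grey), within 1 kb of a gene boundary (solid) or away from one (dashed). Right, median log2 fold change against untreated of the boundary peaks at each time; the mitoribosomal median is 0.20, 0.36 and 0.50, above that of all boundary peaks (0.06, 0.20 and 0.37) at each time.

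Each tested member's change is ranked in the plot of changes over the eribulin times. A positive value was fitted at 39 of 59 peaks (66.1%), against 49.5% of all tested peaks. The peak of Mrps24 was highest. The lowest value was that of the boundary peak of Mrpl39 at -0.79 ± 0.38 (SE, adjusted p = 0.141 in edgeR's quasi-likelihood test with Benjamini-Hochberg adjustment), which was not called.

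**Figure D2:**
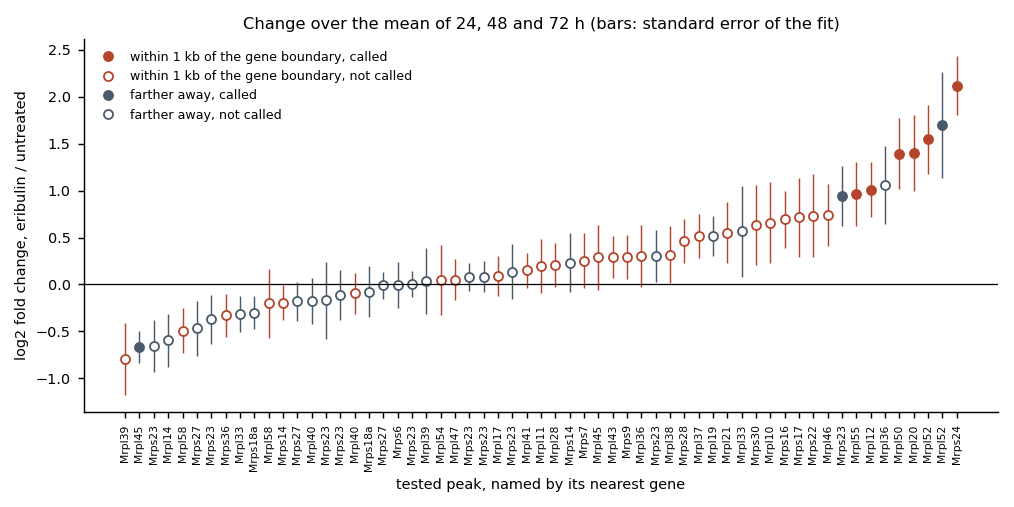
log2 fold change of eribulin over untreated (y axis, mean of 3 times, bars are the standard error of the fit) for the 59 tested peaks, ordered by value and named by nearest gene; filled points were called. The called peaks run from 0.94 to 2.12 on the high side, and the only one called on the low side is Mrpl45 at -0.67.

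Among small subunit genes the largest change was at Mrps24, which encodes a protein whose bacterial counterpart sits near the mRNA entry of the ribosome. The peak lay at chr11:5707373-5707786, across the gene's start, its centre 122 bp from it. It had 8.25 and 16.8 CPM in the untreated libraries, 71.6 and 64.1 CPM at 24 h, 43.7 and 47.9 CPM at 48 h, and 76.3 and 65.9 CPM at 72 h. Every eribulin library was above both untreated ones, and 48 h was the lowest of the 3 times. In counts it had 204 in the eribulin libraries and 14 in the untreated ones, a ratio of 4.37 after scaling by library totals (95% exact interval 2.55 to 8.14, counting error only). The log2 fold change was 2.28 ± 0.34 (SE) at 24 h, 1.71 ± 0.37 at 48 h and 2.37 ± 0.37 at 72 h, with adjusted p = 4.35e-07, 0.000871 and 2.22e-06 in edgeR's quasi-likelihood test with Benjamini-Hochberg adjustment. Over the mean it was 2.12 ± 0.31 (adjusted p = 1.96e-07) and stayed called in all 15 alternatives, with values from 1.82 to 2.84. The 48 h call was lost in DESeq2 (adjusted p = 0.0938) and when all libraries were thinned to the smallest total. In the authors' deposited lists the peak was absent without eribulin, and 13.6-fold, 9.47-fold and 8.77-fold over IgG at 24, 48 and 72 h.

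Mrps16, which encodes a small subunit protein with a bacterial counterpart, had its peak 55 bp from the boundary it shares with Cfap70 (chr14:20393532-20393846). It had 16.5 and 26.0 CPM in the untreated libraries, 30.7 and 24.6 CPM at 24 h, 52.9 and 35.9 CPM at 48 h, and 41.6 and 37.6 CPM at 72 h. The 48 h and 72 h libraries were above both untreated ones, while 24 h overlapped them. In edgeR's quasi-likelihood test with Benjamini-Hochberg adjustment it rose at 48 h (1.00 ± 0.33, adjusted p = 0.0317) and was not called over the mean (0.70 ± 0.30, adjusted p = 0.103). The 48 h call was lost without either untreated library (0.79 without replicate 1, 1.46 without replicate 2) and without 48 h replicate 1 (0.66).

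Mrps23, a small subunit gene with no bacterial counterpart, accounted for 10 of the 63 members, in a neighbourhood of dense ZEB1 peaks on chromosome 11. Of these 10, 7 lay inside the adjacent gene Cuedc1, and 2 lay beyond the far end of Mrps23. The Mrps23 boundary used to assign the Cuedc1 peaks came from the gene table and lay nearer to them than the RefSeq promoter. The peak at the RefSeq promoter of Mrps23 itself (chr11:88204188-88204346) was weak, with 11.0 and 19.9 CPM in the untreated libraries, 11.9 and 10.9 CPM at 24 h, 18.5 and 17.1 CPM at 48 h, and 18.5 and 12.5 CPM at 72 h. The groups overlapped there, and the change over the mean was -0.17 ± 0.41 (adjusted p = 0.812, edgeR's quasi-likelihood test with Benjamini-Hochberg adjustment). The 3 strongest of the 10, all in Cuedc1, averaged 151, 123 and 108 CPM and were among the 5 uncalled members with the highest signal. The strongest had 132 to 166 CPM in the eribulin libraries and 151 CPM in both untreated ones, a log2 fold change of 0.0027 ± 0.14.

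Within the same cluster 2 peaks passed a test, in opposite directions. The outermost (chr11:88161732-88162164) had 8.25 and 26.0 CPM in the untreated libraries, 22.2 and 31.4 CPM at 24 h, 39.7 and 27.4 CPM at 48 h, and 60.1 and 56.5 CPM at 72 h. All libraries of 48 h and 72 h were above both untreated ones, and 1 of the 24 h libraries was not. It rose over the mean (0.94 ± 0.32, adjusted p = 0.0282) and at 72 h (1.56 ± 0.37, adjusted p = 0.00205) in edgeR's quasi-likelihood test with Benjamini-Hochberg adjustment, and the call over the mean was lost without untreated replicate 1 (0.53), without 24 h replicate 2 (0.85) and without 48 h replicate 1 (0.84), while without untreated replicate 2 the value was 2.18 and called. A peak some kilobases along (chr11:88172019-88172383) had 46.8 and 39.7 CPM in the untreated libraries, 42.6 and 34.1 CPM at 24 h, 35.7 and 25.7 CPM at 48 h, and 16.2 and 15.7 CPM at 72 h. Both 72 h libraries were below all others. It fell at 72 h (-1.39 ± 0.42, adjusted p = 0.0187) in the same test. That call was lost with any 1 of the untreated or 72 h libraries left out, with values from -1.54 to -1.32 in those fits, and it was not called over the mean (-0.66 ± 0.28, adjusted p = 0.0883).

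**Figure D3:**
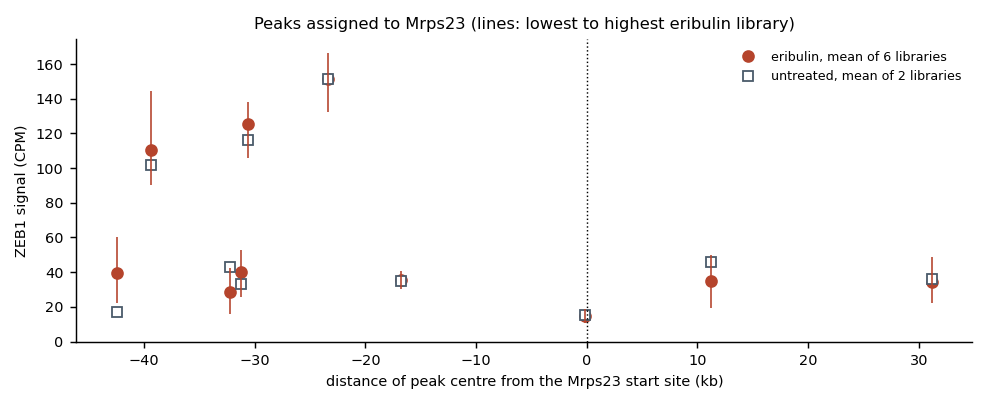
ZEB1 signal (CPM, y axis) of the 10 peaks assigned to Mrps23 by distance of their centre from the RefSeq start of the gene (kb, x axis, dotted line at the start), as the mean of 6 eribulin libraries (red, line from lowest to highest library) and of 2 untreated libraries (squares). The peak at the start averages 15.0 CPM over all libraries, while 3 peaks in the neighbouring gene Cuedc1 average 108 to 151 CPM, with eribulin and untreated means close together.

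Among large subunit genes, 2 peaks near Mrpl52 rose. Mrpl52 encodes a protein with no bacterial counterpart. The peak over its start (chr14:54426838-54427091) had 5.50 and 15.3 CPM in the untreated libraries, 25.6 and 30.01 CPM at 24 h, 37.0 and 30.8 CPM at 48 h, and 39.3 and 50.2 CPM at 72 h. All eribulin libraries were above both untreated ones. Over the mean the log2 fold change was 1.54 ± 0.37 (adjusted p = 0.00140, edgeR's quasi-likelihood test with Benjamini-Hochberg adjustment), and the call was lost without untreated replicate 1 (1.17, adjusted p = 0.0559), while without untreated replicate 2 the value was 2.62 and called. The second peak lay 1.09 kb before the start (chr14:54425681-54425960) and rested on 3 and 2 counts in the untreated libraries. Its ratio in counts was 3.96 (95% exact interval 1.61 to 12.6, counting error only).

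That outer peak had 8.25 and 3.06 CPM in the untreated libraries, 30.7 and 28.6 CPM at 24 h, 14.6 and 13.7 CPM at 48 h, and 9.25 and 12.5 CPM at 72 h, so it was highest at 24 h, where the peak over the Mrpl52 start was lowest among the eribulin times. It rose at 24 h (2.54 ± 0.54, adjusted p = 0.000545) and over the mean (1.70 ± 0.57, adjusted p = 0.0271) in edgeR's quasi-likelihood test with Benjamini-Hochberg adjustment. Without untreated replicate 2 neither was called (1.83 and 0.98), and the call over the mean was also lost without 72 h replicate 2 (1.63, adjusted p = 0.0521), while without untreated replicate 1 the value over the mean was 2.34 and called. The direct test of 72 h against 24 h called neither Mrpl52 peak.

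Mrpl12 encodes a stalk protein of the large subunit that in human cells is also known to bind the mitochondrial RNA polymerase. Its peak (chr11:120484443-120484906) lay 38 bp from the start, which is within 1 kb of a boundary of Hgs. It had 16.5 and 24.5 CPM in the untreated libraries, 44.3 and 43.7 CPM at 24 h, 42.3 and 44.5 CPM at 48 h, and 41.6 and 47.1 CPM at 72 h. The 3 times were alike and all above the untreated libraries. The log2 fold change over the mean was 1.01 ± 0.29 (adjusted p = 0.0106, edgeR's quasi-likelihood test with Benjamini-Hochberg adjustment). Without untreated replicate 1 it was 0.82 (adjusted p = 0.120) and without replicate 2 it was 1.40 (adjusted p = 0.0991).

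Mrpl20, whose product has a bacterial counterpart, had a peak inside the gene, 808 bp from its start and outside the promoter window (chr4:155803550-155803821). It had 16.5 and 6.11 CPM in the untreated libraries, 27.3 and 30.01 CPM at 24 h, 21.2 and 22.2 CPM at 48 h, and 30.05 and 28.2 CPM at 72 h. All eribulin libraries were above both untreated ones. It rose over the mean (1.40 ± 0.41, adjusted p = 0.0103) in edgeR's quasi-likelihood test with Benjamini-Hochberg adjustment. Without untreated replicate 2, which is the lower of the pair, the value was 0.67 and the call was lost, while without untreated replicate 1 it was 2.06 and called.

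Mrpl50, a gene with no bacterial counterpart, shares its promoter with Zfp189, and the peak (chr4:49520985-49521205) lay 12 bp from the boundary. It had 8.25 and 13.8 CPM in the untreated libraries, 27.3 and 34.1 CPM at 24 h, 30.4 and 46.2 CPM at 48 h, and 25.4 and 28.2 CPM at 72 h. The groups did not overlap. The log2 fold change over the mean was 1.39 ± 0.38 (adjusted p = 0.00546, edgeR's quasi-likelihood test with Benjamini-Hochberg adjustment), 1.17 without untreated replicate 1 and 1.90 without replicate 2, neither of which was called.

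Mrpl55, also without a bacterial counterpart, was the only one of the peaks that rose over the mean with CACCTG in the promoter window it reached. The peak (chr11:59202185-59202537) had 5.50 and 24.5 CPM in the untreated libraries, 46.0 and 20.5 CPM at 24 h, 37.0 and 35.9 CPM at 48 h, and 27.7 and 47.1 CPM at 72 h. The groups overlapped, since 1 of the 24 h libraries was below the higher untreated one. It rose over the mean (0.96 ± 0.34, adjusted p = 0.0389) in edgeR's quasi-likelihood test with Benjamini-Hochberg adjustment and at no single time. The call was lost without untreated replicate 1 (0.49), without 24 h replicate 1 (0.75) and without 72 h replicate 2 (0.83), and without untreated replicate 2 the value was 2.61 and called.

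The peaks that reached the other 3 CACCTG promoter windows were not called, and their fitted changes differed in sign. The negative value was at Mrpl58, where the word lay before the peak and was not covered by it. The peak at Mrpl46 had 27.5 and 13.8 CPM in the untreated libraries, 37.5 and 36.8 CPM at 24 h, 23.8 and 34.2 CPM at 48 h, and 30.05 and 28.2 CPM at 72 h, with a change over the mean of 0.74 ± 0.33 (adjusted p = 0.113, edgeR's quasi-likelihood test with Benjamini-Hochberg adjustment). The peak at Mrpl21, shared with Ighmbp2, had 27.5 and 16.8 CPM in the untreated libraries, 29.0 and 35.5 CPM at 24 h, 30.4 and 34.2 CPM at 48 h, and 18.5 and 37.6 CPM at 72 h, with a change of 0.55 ± 0.33 (adjusted p = 0.251). The peak at the start of Mrpl58 (chr11:115403721-115403985) had 24.8 and 18.3 CPM in the untreated libraries, 11.9 and 25.9 CPM at 24 h, 18.5 and 12.0 CPM at 48 h, and 16.2 and 22.0 CPM at 72 h, with a change of -0.20 ± 0.37 (adjusted p = 0.748). The groups overlapped at all 3.

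**Figure D4:**
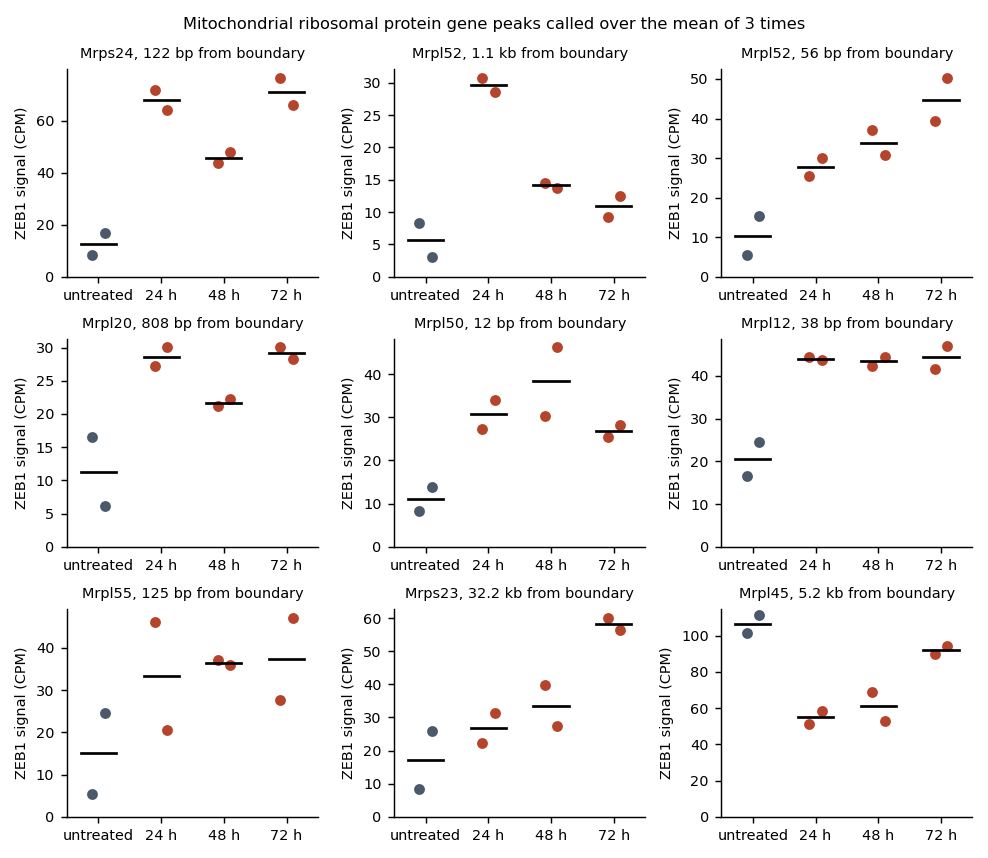
ZEB1 signal (CPM, y axis, from 0) of the 9 member peaks called over the mean of 3 times, in the 2 libraries of each group (points, untreated in grey and eribulin in red) with the group mean (line). At Mrps24 the eribulin libraries lie between 43.7 and 76.3 CPM and the untreated ones at 8.25 and 16.8 CPM, while at Mrpl45 all eribulin libraries lie below both untreated ones.

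The peak that fell over the mean was near Mrpl45, which encodes a large subunit protein at the exit of the peptide tunnel. It was broad and lay outside the gene, 5.18 kb from its start (chr11:97309081-97310402). It had 102 and 112 CPM in the untreated libraries, 51.2 and 58.7 CPM at 24 h, 68.8 and 53.0 CPM at 48 h, and 90.1 and 94.1 CPM at 72 h. All eribulin libraries were below both untreated ones, and the 72 h libraries were the nearest to them. In edgeR's quasi-likelihood test with Benjamini-Hochberg adjustment it fell at 24 h (-0.96 ± 0.21, adjusted p = 0.000919), at 48 h (-0.80 ± 0.21, adjusted p = 0.00542) and over the mean (-0.67 ± 0.17, adjusted p = 0.00350). At 72 h it was -0.23 ± 0.22 (adjusted p = 0.513). Without untreated replicate 2 the calls were lost (-0.86, -0.71 and -0.57), and at 48 h also without 48 h replicate 2 (-0.65). A second peak, at the Mrpl45 start, was not called (0.29 ± 0.34 over the mean, adjusted p = 0.605).

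A further 4 Mrpl peaks passed the test at 1 time. The peak in Mrpl36, a gene with a bacterial counterpart, lay over its RefSeq promoter (chr13:73330976-73331261) and had 30.4 and 27.4 CPM at 48 h, against 8.25 and 12.2 CPM in the untreated libraries. The groups did not overlap at that time, and it rose by 1.41 ± 0.44 (adjusted p = 0.0231, edgeR's quasi-likelihood test with Benjamini-Hochberg adjustment). The other Mrpl36 peak, at the boundary shared with Ndufs6, was not called. The peak at Mrpl37, 68 bp from a boundary shared with Cyb5rl, had 62.2 and 73.6 CPM at 48 h, against 35.8 and 42.8 CPM in the untreated libraries. It rose by 0.73 ± 0.26 (adjusted p = 0.0485) and was the call nearest the threshold, lost in 11 of the alternatives.

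The other 2 fell. The peak inside Mrpl14, which encodes a subunit interface protein, had 14.6 and 12.0 CPM at 48 h, against 35.8 and 36.7 CPM in the untreated libraries, and at 72 h it had 27.7 and 34.5 CPM. It fell at 48 h (-1.42 ± 0.38, adjusted p = 0.00788, edgeR's quasi-likelihood test with Benjamini-Hochberg adjustment). The peak 438 bp from the end of Mrpl58, whose product is known in human cells as a peptidyl-tRNA hydrolase that rescues stalled mitoribosomes, had 17.1 and 24.6 CPM at 24 h, against 63.3 and 44.3 CPM in the untreated libraries. It fell at 24 h (-1.26 ± 0.32, adjusted p = 0.00468), and its centre lay 59 bp from the boundary of a tRNA gene. Left-out libraries ended each of these 4 calls. Mrpl36 lost it without either untreated library (1.22 and 1.79) or 48 h replicate 1 (1.32). Mrpl37 lost it without either untreated (0.63 and 0.91), either 48 h (0.86 and 0.63) or either 24 h library (0.730 and 0.732), or 72 h replicate 2 (0.723). Mrpl14 lost it without untreated replicate 2 (-1.39) or 48 h replicate 2 (-1.30), and Mrpl58 without untreated replicate 1 (-1.06) or 24 h replicate 1 (-1.04).

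Of the 12 genes with 2 or more peaks, 5 had a peak called against untreated cells, and Mrps6 had one called for 72 h against 24 h alone. The other 6 had none. The 3 peaks inside Mrps27, a small subunit gene with no bacterial counterpart, had changes over the mean from -0.47 to -0.01, and the strongest of them had 107 to 154 CPM in the eribulin libraries, against 121 and 136 CPM in the untreated ones. The 2 peaks far from Mrps18a, 37.0 and 39.3 kb away, had -0.30 and -0.08. The 2 tested peaks of Mrpl33 had -0.32 and 0.57, those of Mrpl40 -0.17 and -0.10, those of Mrpl39 -0.79 and 0.035, and those of Mrps14 -0.20 and 0.23. None of these passed the test at any time, and for each the fitted values are given with no direction claimed. The remaining boundary members, such as those of Mrpl41 (79.1 CPM on average, 0.15 ± 0.19) and Mrpl17 (60.3 CPM, 0.09 ± 0.21), which were in all 4 lists, were not called either.

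The authors' deposited peak lists, 1 per group, show which members were listed where. Members in a list numbered 40 at baseline (63.5%), 40 at 24 h (63.5%), 46 at 48 h (73.0%) and 38 at 72 h (60.3%). Over all 23623 peaks the shares were 78.7%, 63.0%, 60.2% and 51.6%. A listing in all 4 held for 24 members (38.1%), against 34.7% of all peaks, and a listing at every eribulin time but not at baseline for 4 (6.35%), against 2.69%. Boundary peaks gave other contrasts. Of the 35 boundary members 62.9%, 60.0%, 74.3% and 60.0% were listed at baseline, 24, 48 and 72 h. Of all boundary peaks the shares were 75.6%, 63.1%, 66.2% and 69.1%. All 4 lists held 34.3% of boundary members, against 42.1% of all boundary peaks. Every eribulin list but not the baseline one held 11.4%, against 4.07%. Fold over IgG among listed members ran from 3.70 to 17.5 with eribulin and from 3.57 to 17.9 without it. All 8 members that rose over the mean were missing from the untreated list, as were 48.6% of the 1752 peaks that rose overall. The lists and the counts come from the same reads, so the one is no independent check of the other.

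Between 72 h and 24 h, 3 of the 59 members were higher at 72 h and 0 lower in edgeR's quasi-likelihood test with Benjamini-Hochberg adjustment, over a background of 4.71% of all tested peaks in either direction (2.32% higher, 2.39% lower). DESeq2 called 0, with 4 higher and 1 lower at an unadjusted p below 0.05, and edgeR had 7 higher and 6 lower at that unadjusted level. The 3 were the outermost Mrps23 peak, the Mrpl58 end peak and a peak inside Mrps6 (chr16:92105492-92105719). Mrps6 encodes a small subunit protein with a bacterial counterpart. That peak had 2.75 and 7.64 CPM in the untreated libraries, 1.71 and 4.09 CPM at 24 h, 3.97 and 1.71 CPM at 48 h, and 23.1 and 18.8 CPM at 72 h, and it was listed by the authors at 72 h alone. The 72 h libraries stood above all others, from only 24 counts over all eribulin libraries together.

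Other genes of mitochondrial translation and mitochondrial gene expression were read from lists of 87 symbols, of which 85 matched. They had 49 peaks, 46 of them tested, and over the mean 4 rose and 0 fell in edgeR's quasi-likelihood test with Benjamini-Hochberg adjustment (background 8.27% higher and 8.53% lower), with a median log2 fold change of 0.23 against -0.01 for all tested peaks. Of the 46, 33 lay at a gene boundary, and these held all 4 rises (12.1%, against 12.8% of all boundary peaks) and had a median of 0.27, against 0.20 for all boundary peaks. The rises were at Mtif3 (1.46 ± 0.33, adjusted p = 0.000813), a mitochondrial translation initiation factor, Nars2 (1.12 ± 0.32, adjusted p = 0.00957), the mitochondrial asparaginyl-tRNA synthetase, Mettl17 (0.64 ± 0.23, adjusted p = 0.0415), a factor of small subunit assembly, and Lars2 (0.54 ± 0.09, adjusted p = 8.91e-06), the mitochondrial leucyl-tRNA synthetase. The Lars2 peak averaged 1656 CPM and the next strongest of these peaks, at Mtrf1l, 152 CPM, and whether reads map uniquely at Lars2 was not tested. Without it 3 of 45 rose (6.67%). Mtif3 had 11.0 and 16.8 CPM in the untreated libraries, 39.2 and 40.9 CPM at 24 h, 35.7 and 42.8 CPM at 48 h, and 41.6 and 47.1 CPM at 72 h, with no overlap. DESeq2's Wald test over the mean did not call Mtif3 (adjusted p = 0.0989), Nars2 (adjusted p = 0.261) or Mettl17 (adjusted p = 0.354). It called Lars2 (adjusted p = 0.0158). With all libraries thinned to the smallest total, Mtif3, Nars2 and Mettl17 also lost their calls, and Lars2 kept its call. By list, 1 of 6 tested peaks of translation factors rose, 2 of 16 of tRNA synthetases, 1 of 12 of assembly factors, 0 of 1 of mitoribosomal proteins with other symbols and 0 of 11 of mitochondrial DNA expression genes. Without untreated replicate 2 the calls were lost at Nars2 (0.81), Mettl17 (1.16) and Lars2 (0.37), and at Mettl17 also without untreated replicate 1 (0.41), 24 h replicate 1 (0.56), 48 h replicate 2 (0.61) or 72 h replicate 2 (0.49).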

How the data were processed

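Per the submitters' processing notes, Bowtie2 2.2.6 and cutadapt 2.4 were used with GRCm38, along with MACS2 2.1.1, featureCounts, Picard, deepTools, bedtools 2.30.0 and bcl2fastq 2.20.0.422. The sources used here do not give their settings. For 8 ZEB1 libraries the authors deposited unscaled counts in consensus peaks. Their peak list for each group holds a fold over IgG, from the authors' peak caller, and is named for the replicate 1 library. The sources used here do not say how replicate 2 entered the calling. The lists served here for that fold and for presence.

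Tests used edgeR 4.0.16 (R 4.3.3): filterByExpr by group (21192 peaks kept, 2431 untested), TMM (factors 0.994 to 1.01), and a robust quasi-likelihood model with 1 mean per group and 4 residual degrees of freedom. The fit was also run on simulated counts, with changes at 72 h alone and only at peaks above the median signal. Their spread was set near that of these libraries, so that run cannot show how calls hold at weak peaks or between cultures. Benjamini-Hochberg adjustment ran over all tested peaks, and a peak was called below 0.05. DESeq2 1.42.0 was an alternative. Errors after ± are standard errors of the fit. Gene boundaries came from the NCBI table of GRCm38.p6, which has no strand. Promoters came from RefSeq (same build).

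The labels do not say that replicate numbers pair the libraries, and the main fit did not pair them. Replicate differences correlated at -0.0287 to 0.00116 between groups. Since replicates differed by about sampling noise, these values cannot show whether the libraries were paired. The members and lists were chosen with earlier results of these data known. Peaks named are those called in any comparison with untreated cells, the 5 strongest uncalled members, genes with 2 or more peaks, and called peaks of the other mitochondrial lists. Others were chosen after their values were seen, such as Mrpl46, Mrpl21, Mrpl39, Mrpl41, Mrpl17, the Mrps6 peak, Mtrf1l and the peaks assigned to a partner gene. Coverage tracks were not analysed here.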

Additional observations from a re-analysis of the deposited data

Results flagged for a closer look

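At 3 peaks the effect at 72 h differed from that at 24 h by the direct test (edgeR's quasi-likelihood test with Benjamini-Hochberg adjustment). The peak inside Mrps6, whose signal was at most 7.64 CPM in every library before 72 h, differed by 2.72 on the log2 scale (adjusted p = 0.0257). That fold rests on very few counts, 24 over all eribulin libraries together and 6 over the untreated ones. The outermost Mrps23 peak, inside Cuedc1, differed by 1.10 (adjusted p = 0.0299). The peak at the end of Mrpl58 differed by 1.35 (adjusted p = 0.0105), since it was low at 24 h and near the untreated level at 72 h. Each call was lost with 1 library left out. At Mrps6 this held for any 1 of the 24 h and 72 h libraries (2.31 to 3.46), at Mrps23 likewise (0.88 to 1.38), and at Mrpl58 for 24 h replicate 1 (1.13) and 72 h replicate 2 (1.19).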

How the results depend on the processing

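The counts of called peaks depended most on the tool and on depth. With DESeq2 the calls over all peaks were 90 at 24 h, 76 at 48 h, 115 at 72 h, 231 over the mean and 5 for 72 h against 24 h, and over members 1, 0, 1, 1 and 0. With every library thinned to the smallest total they were 163, 111, 221, 406 and 14, and over members 2, 0, 2, 4 and 0, from fewer counts by construction. With the untreated, 24 h and 72 h pairs each summed, 644 peaks were called for 72 h against 24 h, and over members 9 over the mean. Members within 1 kb of the boundary gave 3 calls at 72 h and 1 for 72 h against 24 h, from fewer peaks. With 1 library left out the counts were 508 to 2515 at 24 h, 517 to 2553 at 48 h, 713 to 2870 at 72 h, 663 to 3507 over the mean and 208 to 1135 for 72 h against 24 h, and over members 2 to 8, 3 to 9, 3 to 5, 4 to 9 and 0 to 3. The lowest counts against untreated cells came without untreated replicate 2, which for members over the mean was matched without untreated replicate 1, except that the member count at 72 h was lowest without either 72 h library. The cause was not tested for DESeq2. With the replicate block 9 members were called over the mean, 8 higher and 1 lower, and 3464 peaks in all. Since the labels do not say that replicate numbers pair the libraries, it is not known whether this is a paired analysis. Some uncalled values turned sign: with 1 library left out Mrpl14 at 24 h ran from -0.27 to 0.057, the Mrps23 peak that fell at 72 h ran at 24 h from -0.30 to 0.024 (both positive without 24 h replicate 2), and Mrpl58 at 72 h ran from -0.21 to 0.29 (negative without untreated replicate 2 or 72 h replicate 2, -0.079) and was -0.22 thinned. Of the peaks that rose over the mean, those of Mrpl12 and of the Mrpl52 start were called in 12 of 15 alternatives, Mrpl20 in 12 of 14, the outer Mrpl52 peak in 11 of 13, Mrpl50 and Mrps23 in 11 of 15 and Mrpl55 in 10 of 15, all with positive values. Mrpl20 and the outer Mrpl52 peak have smaller totals because DESeq2 gave no adjusted p there. The outer Mrpl52 peak also gave no result after thinning. Their shares are thus not like those of peaks that DESeq2 could fail to call. Untreated libraries held 2 to 17 counts each at the peaks that rose, which limits every fold.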
